A study of Mus musculus with 40 samples.

Results

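The 10 effector cytokine genes described here were Ifng, Tnf, Il2, Il21, Csf2, Il3, Il5, Il4, Il13 and Il17a, which encode the secreted proteins by which helper T cells act on other cells. They were followed in 2 microarray experiments on mouse CD4+ T cells, one on sorted regulatory and conventional T cells and one on regulatory T cells cultured with a semaphorin ligand. Each gene was read from 1 probe set annotated to that gene alone, the one with the highest mean over the arrays of its platform. All 10 were measured on both platforms, among 18194 genes in the sorted cells and 17097 genes in the ligand cultures.

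Effector cytokine genes are largely silent in resting T cells and are switched on after engagement of the T cell receptor and CD28, through transcription factors such as NFAT, AP-1 and NF-kappaB. Regulatory T cells (Treg), marked by the transcription factor Foxp3, normally make little of these cytokines: Foxp3 cooperates with NFAT to hold Il2 down, and Treg depend on IL-2 made by other cells. Loss of that restraint, with production of interferon gamma or other effector cytokines, is one of the signs used to describe an unstable Treg. Neuropilin-1, encoded by Nrp1, is a surface receptor of Treg, and the series asked how its ligand semaphorin-4a acts on them.

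In the sorted cell experiment, C57Bl/6 mice carried the Foxp3GFP reporter, in which green fluorescence marks cells that express Foxp3. CD4+ CD45RBlow GFP+ cells were taken as Treg and CD4+ CD45RBhi GFP- cells as conventional T cells. The source label of all 8 arrays reads bone marrow, whereas the protocols describe only sorted and cultured CD4+ T cells, so the tissue of origin is uncertain. All cells were cultured for 48 h. Activated Treg (3 arrays) received anti-CD3 and anti-CD28. Their unstimulated counterparts were 3 arrays of resting Treg, and the conventional T cells, on 2 arrays, were likewise left at rest. No activated conventional T cells were among these arrays, so a group known to switch these genes on was not analysed here. In the ligand experiment, CD4+ CD45RBlo Foxp3-YFP+ Treg were sorted from spleen and peripheral lymph node. Every culture received immobilised anti-CD3 at 1 µg/mL, soluble anti-CD28 at 2 µg/mL and recombinant human IL-2 at 100 U/mL. The ligand, a Sema4a-Ig fusion, or mouse IgG1 as its control was immobilised at 10 µg/mL. WT cells came from Foxp3-YFPiCre mice and NRP KO cells from Nrp fl/fl x Foxp3-YFP-iCre mice, in which the Foxp3 locus drives the recombinase, so that deletion is directed to Foxp3-expressing cells. Each genotype had 8 Sema4a-Ig cultures and 8 IgG1 cultures, joined into 16 pairs by neighbouring codes in the array titles. The Sema4a-Ig array of WT pair 2 is titled WT but carries the floxed genotype in another label, and it was kept with its title. The labels do not say whether arrays came from separate animals, and each p-value covers array-to-array spread, which may be technical. In such bulk RNA, fewer cells that make a cytokine and less cytokine RNA per cell cannot be told apart.

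The arrays limit what can be read. A gene was taken to lie at background when its mean did not exceed the level under which 95% of 35 tissue-restricted genes lay, 6.01 log2 units in the sorted cells and 5.76 in the ligand cultures. All 8 Treg markers were higher in Treg than in conventional T cells. In the ligand cultures 6 of 7 measured Treg markers lay above background. Foxp3 itself did not, at a mean of 3.55. The deposited values of the ligand experiment had the same pair mean in all 16 pairs at every probe set, within 6e-05 log2 units. Only the Sema4a-Ig minus IgG1 difference within a pair therefore carries information, a level cannot be compared between WT and NRP KO, and loss of Nrp1 in the NRP KO cultures could not be checked. In the sorted cells, the 3′ minus 5′ signal of Actb, a measure of how complete the labelled RNA was, ranged from 2.31 to 6.17 log2 units in activated Treg, from 2.50 to 5.90 in resting Treg and from 1.24 to 1.54 in conventional T cells. Every Treg array thus lay above both conventional T cell arrays. In comparisons with conventional T cells, this measure and cell type cannot be told apart.

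The sequences before the start of the 4 genes that passed a test in either experiment were searched for short motifs. Each is the 250 bases before the RefSeq start, read 5′ to 3′ on the gene's own strand (GRCm38.p6). Capitals mark the NFAT core GGAAA and the TATA box TATAAA on either strand, so that TTTCC is the NFAT core on the opposite strand. The AP-1 motif TGANTCA was also searched and lies in none of the 4. Ifng lies at chr10:118440796-118441045 on the plus strand, and Il2 at chr3:37125955-37126204 on the minus strand. Il3 lies at chr11:54267280-54267529 on the minus strand, and Csf2, its neighbour 15186 bases away, at chr11:54249900-54250149 on the minus strand.
Ifng: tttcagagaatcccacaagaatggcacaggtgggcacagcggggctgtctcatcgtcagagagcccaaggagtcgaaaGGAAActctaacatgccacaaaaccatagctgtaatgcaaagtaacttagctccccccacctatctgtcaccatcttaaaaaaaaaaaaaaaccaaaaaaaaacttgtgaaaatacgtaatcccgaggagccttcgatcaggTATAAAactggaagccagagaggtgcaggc
Il2: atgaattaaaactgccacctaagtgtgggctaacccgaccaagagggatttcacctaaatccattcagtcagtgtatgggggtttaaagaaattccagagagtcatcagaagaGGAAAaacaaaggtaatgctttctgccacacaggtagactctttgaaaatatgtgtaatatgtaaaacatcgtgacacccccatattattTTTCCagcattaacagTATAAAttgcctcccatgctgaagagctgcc
Il3: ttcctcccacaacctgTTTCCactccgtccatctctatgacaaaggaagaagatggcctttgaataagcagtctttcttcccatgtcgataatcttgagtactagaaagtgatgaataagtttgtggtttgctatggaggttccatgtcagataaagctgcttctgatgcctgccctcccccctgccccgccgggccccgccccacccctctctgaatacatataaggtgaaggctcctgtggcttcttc
Csf2: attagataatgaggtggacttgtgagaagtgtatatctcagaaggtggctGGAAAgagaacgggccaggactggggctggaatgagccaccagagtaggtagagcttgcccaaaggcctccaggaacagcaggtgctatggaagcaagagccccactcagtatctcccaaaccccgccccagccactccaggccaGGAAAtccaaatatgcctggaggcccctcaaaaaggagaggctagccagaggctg

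The Ifng and Il2 windows hold a TATA box at bases -30 to -25 and -31 to -26 from the start, whereas the Il3 and Csf2 windows hold no exact match to it. The NFAT core occurs at 1 place in the Ifng window (bases -172 to -168), at 2 places in that of Il2 (-137 to -133 and -47 to -43), at 1 place in that of Il3 (-234 to -230) and at 2 places in that of Csf2 (-200 to -196 and -55 to -51). Over all 10 genes, 9 had the NFAT core before at least 1 of their starts, 5 had the TATA box and 1, Il17a, had the AP-1 motif. Il4 has 2 annotated starts and had the NFAT core before start 2 only. The shares over 32841 RefSeq promoter windows of the same length were 55.6%, 12.4% and 6.8%, counted per window and not per gene. A match is a run of letters and not a measured site of binding. The motifs searched do not overlap one another in these windows, except for the 2 TATA box matches of Il13, which lie on opposite strands.

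**Figure D1:**
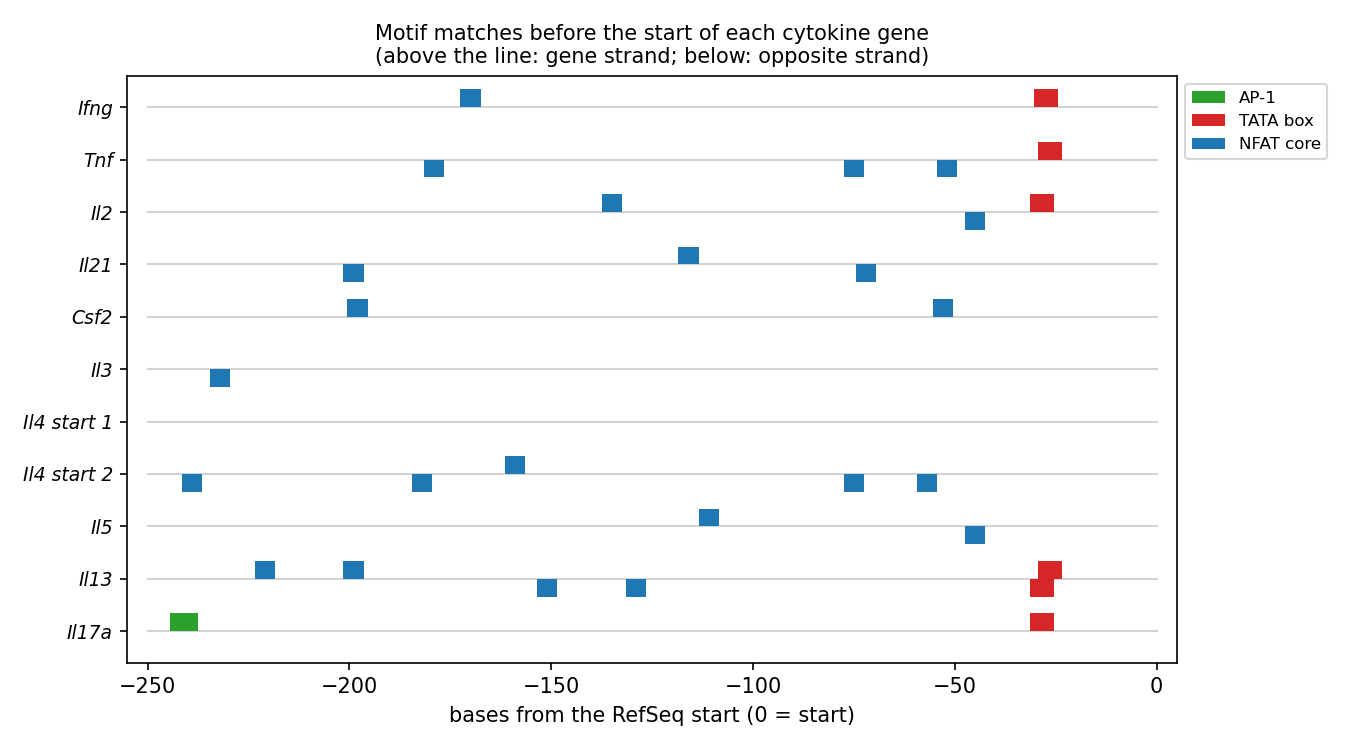
Matches to 3 motifs in the 250 bases before the RefSeq start of the 10 cytokine genes; the x axis is the distance from the start in bases, boxes above a line lie on the gene's strand and boxes below it on the opposite strand, and Il4 has 2 annotated starts. TATA box matches stand close to the start in 5 genes, NFAT core matches are scattered over the window, and the only AP-1 match lies before Il17a.

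The first question was how Sema4a-Ig changed these genes in WT Treg under stimulation. Of the 10 genes, 3 were lower: Il3 by 1.02 ± 0.23 log2 units (SE, 8 pairs), Ifng by 0.85 ± 0.22 and Csf2 by 0.75 ± 0.18. Il3 and Csf2 encode growth factors for myeloid cells, and Ifng encodes interferon gamma, the hallmark of type 1 helper cells. The other 7 genes did not pass the test, among them Tnf and the genes of type 2 and type 17 helper cells. Across all 10, 9 had a negative mean difference, with a median of -0.28 beside -0.01 over all genes. The threshold was an adjusted p of 0.05 in limma, with Benjamini-Hochberg adjustment over all genes. At that threshold 5.79% of all genes were called in either direction and 2.88% were called lower, against 3 of the 10 cytokine genes, all lower. These 3 were not independent of earlier results, since the list was drawn up with results of these data known.

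Ifng was lower with Sema4a-Ig in every WT pair. The differences in pairs 1 to 8 were -1.65, -1.05, -1.95, -0.51, -0.77, -0.06, -0.34 and -0.46 log2 units. Pairs 1 to 3 showed drops of more than 1 log2 unit, and pair 6 was close to 0. The mean of -0.85 (95% interval -1.31 to -0.39) is a 1.8-fold lower signal, with an adjusted p of 0.029 by limma. The call depended on the pairs with the widest differences. Without pair 1 the mean was -0.73 (adjusted p = 0.0933), without pair 2, the one with conflicting genotype labels, -0.82 (adjusted p = 0.0633), and without pair 3 -0.69 (adjusted p = 0.122). Without pairs 1 and 3 together it was -0.53 (adjusted p = 0.343), a choice made after seeing the data. Weights per pair gave -0.60 (adjusted p = 0.0509). The mean level of Ifng over the 32 arrays, 6.97, lay above the background level.

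Il3 encodes interleukin-3, a growth factor for mast cells, basophils and blood progenitors. Its WT pair differences were 0.10, -0.16, -1.64, -0.36, -1.55, -1.24, -2.21 and -1.14 log2 units. Pairs 1, 2 and 4 were small, and the remaining 5 pairs each lay below -1. The mean of -1.02 (95% interval -1.50 to -0.55) was the widest of the 10 in WT and a 2.03-fold lower signal (adjusted p = 0.0121, limma). Leaving out pair 3 gave -0.94 with an adjusted p of 0.055. The signal was low: its mean level was 3.96, under the background level of 5.76 and just above 3.95, the highest of 23 probe sets for sequences outside the mouse genome. On single arrays it spanned 2.86 to 5.07. Of the 35 tissue-restricted genes that set the background, Tg (-0.56 ± 0.14, adjusted p = 0.0259) and Amy2a5 (0.39 ± 0.10, adjusted p = 0.0214) also passed the test in WT.

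Csf2 encodes GM-CSF, which acts on macrophages, granulocytes and dendritic cells and signals through the same beta receptor chain as interleukin-3 and interleukin-5. Its differences in WT pairs 1 to 8 were -0.35, -0.25, -1.14, -0.79, -0.76, -0.53, -1.62 and -0.55 log2 units. Every pair was lower, with pair 7 the lowest and pair 2 the nearest to 0. The mean of -0.75 (95% interval -1.12 to -0.37), a 1.68-fold lower signal, had an adjusted p of 0.0195 by limma. Without pair 3 it was -0.69 (adjusted p = 0.0773), without pair 7 -0.62 (adjusted p = 0.0696), and without pairs 1 and 3 together -0.75 (adjusted p = 0.135). The mean level of 5.15 lay under the background level of 5.76. Leaving out Mbp, Tg and Csn2, whose signals stood apart from the other tissue-restricted genes, lowers that level to 4.23, and Csf2 and Il17a then lie above it.

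The pairs that moved most differed from gene to gene. Pair 1 had one of the widest Ifng differences but among the smallest for Il3, while pair 7 had the lowest Il3, Csf2 and Il2 values and a small Ifng difference. Across the 16 pair differences of both genotypes, Pearson's r was 0.09 between Ifng and Il3, 0.21 between Ifng and Csf2 and 0.39 between Il3 and Csf2. The highest values among the 10 genes were 0.49 between Il2 and Il3, 0.55 between Il2 and Csf2 and 0.75 between Il4 and Il13. These are descriptions over pairs that share a platform and a normalisation, and Il4 and Il13 both lay under the background level.

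**Figure D2:**
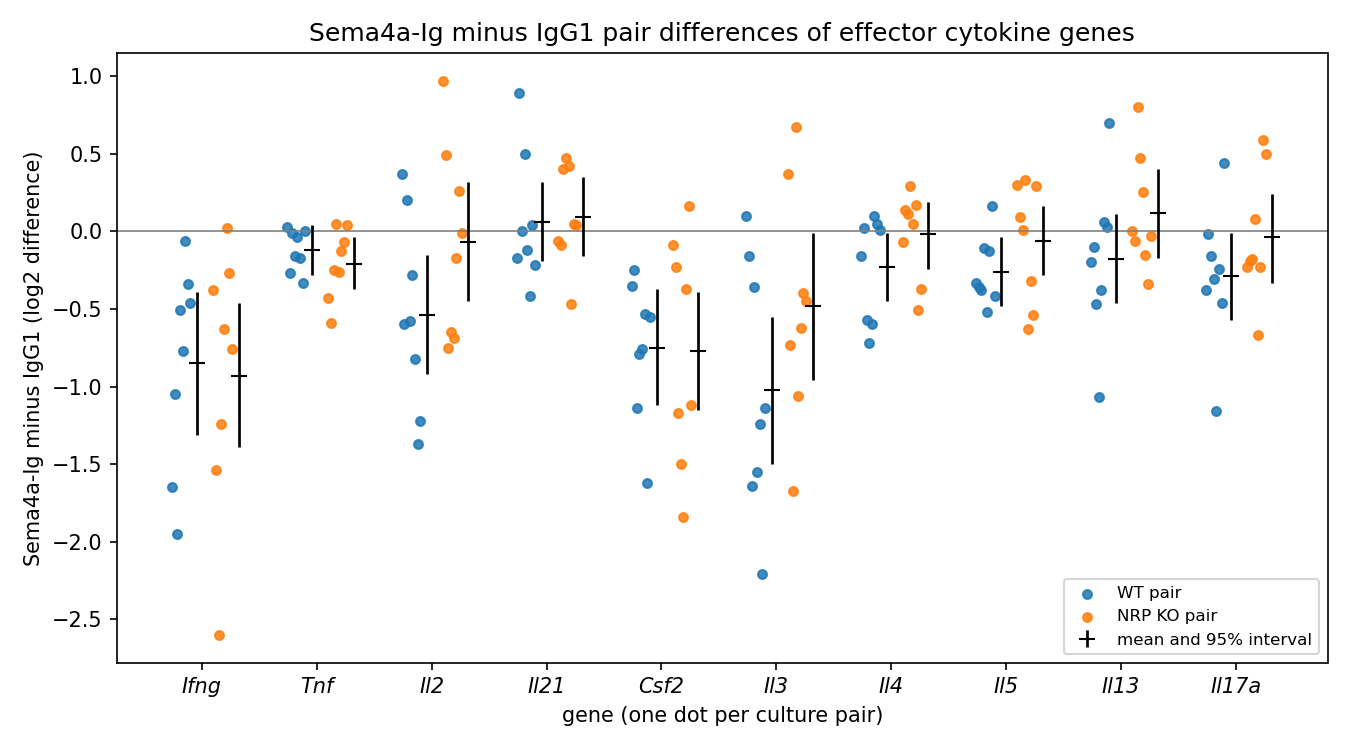
Sema4a-Ig minus IgG1 differences (log2 units, y axis) of the 10 cytokine genes in 8 WT and 8 NRP KO pairs; dots are pairs, and the black bar gives the limma mean with its 95% interval. Ifng and Csf2 lie below 0 in all 8 WT pairs, and their NRP KO means of -0.93 and -0.77 sit beside WT means of -0.85 and -0.75.

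Il2 encodes the growth factor interleukin-2, which was also supplied to every culture as protein. Its WT differences were 0.37, -0.60, 0.20, -0.58, -0.28, -0.82, -1.37 and -1.22 log2 units. Pairs 1 and 3 were above 0 and the other 6 below. The mean of -0.54 ± 0.19 did not pass the test (adjusted p = 0.0867, limma). It did with a filter on low values (adjusted p = 0.045) and with pair weights (-0.76, adjusted p = 0.00749), by limma. Il21, which lies 96805 bases from Il2 and encodes a cytokine of follicular and type 17 helper cells, had a mean of 0.06 ± 0.12 with WT differences between -0.42 and 0.89. A second Il21 probe set gave 0.07 ± 0.36 (SD, n = 8). The mean level of Il21, 3.81, lay under that of the highest nonspecific probe set.

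Tnf encodes tumour necrosis factor and had a mean level of 6.77, above the background level of 5.76. Like Ifng at 6.97, it lay under Csn2, the highest of the tissue-restricted genes at 7.29. The WT differences of Tnf ranged from -0.33 to 0.03 log2 units, with a median of -0.10, and 7 of 8 were below 0. The mean was -0.12 ± 0.08 (95% interval -0.28 to 0.04, adjusted p = 0.411, limma). The interval for Tnf in WT thus reached no lower than -0.28, while that for Ifng ended at -0.39. The difference between these genes was not tested. Lta, which encodes lymphotoxin alpha and lies 1158 bases from Tnf, fell by 0.41 log2 units in WT (SE 0.10, adjusted p = 0.018).

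The type 2 genes Il4, Il13 and Il5, which promote antibody switching to IgE and allergic inflammation, gave means of -0.23 ± 0.10 (adjusted p = 0.202), -0.18 ± 0.14 (adjusted p = 0.516) and -0.26 ± 0.11 (adjusted p = 0.15) in WT. Il5 was lower in 7 of 8 pairs, from -0.52 to 0.16. Il4 was split, with 4 pairs below 0 and 4 above, from -0.72 to 0.10. Il13 ranged from -1.07 in pair 4 to 0.70 in pair 8. Il17a, the signature cytokine of type 17 helper cells, was lower in 7 of 8 pairs (range -1.16 to 0.44) with a mean of -0.29 ± 0.14 (adjusted p = 0.225, limma). All of these lay under the background level, with mean levels of 3.81 for Il4, 4.01 for Il13, 3.65 for Il5 and 4.38 for Il17a.

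The second question was whether these differences needed neuropilin-1. Among NRP KO pairs, 0 of 17097 genes passed the test (0% called, 1787 genes at an unadjusted p under 0.05), and none of the 10 cytokine genes did. Yet Ifng and Csf2 had NRP KO means as large as in WT. The interaction, NRP KO minus WT, called 0 of 17097 genes as well (0% called, 1015 at an unadjusted p under 0.05), and 0 of the 10 cytokine genes had an unadjusted p under 0.05 there. A call in WT and none in NRP KO is therefore not a measured difference between the genotypes.

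In NRP KO, Ifng gave -0.38, -1.54, -2.60, -1.24, -0.63, 0.02, -0.27 and -0.76 log2 units in pairs 1 to 8. Of these, 7 were below 0, and pair 3 was the lowest single value of any cytokine gene in either genotype. The mean was -0.93 ± 0.22 (95% interval -1.39 to -0.46), with an unadjusted p of 0.000438 and an adjusted p of 0.376 in limma. The difference between genotypes was -0.08 (95% interval -0.73 to 0.58, adjusted p = 0.993).

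Csf2 in NRP KO gave -0.09, -0.23, -1.17, -1.50, -1.84, -0.37, 0.16 and -1.12 log2 units. The first 2 pairs and pair 7 were close to 0, and pairs 3, 4, 5 and 8 each fell below -1. The mean was -0.77 ± 0.18 (95% interval -1.15 to -0.39, unadjusted p = 0.000336, adjusted p = 0.376, limma). NRP KO minus WT was -0.02 (95% interval -0.55 to 0.51).

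Il3 in NRP KO gave 0.37, -0.73, -1.67, 0.67, -1.06, -0.62, -0.40 and -0.45 log2 units, with 6 of 8 below 0. Its mean of -0.48 ± 0.23 (adjusted p = 0.473, limma) was closer to 0 than the WT mean. The interval of the difference, -0.13 to 1.21 around 0.54, included 0 (adjusted p = 0.861). Il2 showed the second widest gap between genotypes, with NRP KO values of 0.97, 0.49, -0.75, -0.65, -0.69, -0.17, 0.26 and -0.01. Its NRP KO mean was -0.07 ± 0.19, and the difference was 0.47 (95% interval -0.08 to 1.01, adjusted p = 0.854).

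Tnf in NRP KO ranged from -0.59 to 0.05 log2 units with a mean of -0.21 ± 0.08 (adjusted p = 0.409), and NRP KO minus WT was -0.09 (95% interval -0.31 to 0.14). The other 5 genes, Il4, Il5, Il13, Il17a and Il21, had NRP KO means between -0.06 and 0.12. Their differences from WT ran from 0.03 for Il21 to 0.29 for Il13, with adjusted p of 0.897 or more. Across the 10 genes 8 NRP KO means were negative, with a median of -0.06 beside -0.02 over all genes. For 4 of the 10 the unadjusted p was under 0.05: Ifng, Csf2, Tnf and Il3.

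Genes listed as myeloid markers moved with Sema4a-Ig in WT. Of 16 myeloid markers 14 had positive WT means and 3 passed the test: Lyz2 (0.81 ± 0.15), Tyrobp (0.39 ± 0.11) and Ctss (0.37 ± 0.08). Ctss does not mark myeloid cells alone here, since it read 12.41 to 12.80 on all 8 sorted T cell arrays, conventional T cells included. Only 5 of the 16 lay above background. The mean difference over the 16 markers ran from -0.29 to 0.63 log2 units in WT pairs (median 0.19, 6 of 8 positive) and from -0.24 to 0.35 in NRP KO pairs (median -0.03, 4 of 8 positive). With this mean as a covariate, the WT values, taken at no myeloid difference, were -0.77 for Ifng (adjusted p = 0.278), -0.84 for Il3 (adjusted p = 0.222) and -0.51 for Csf2 (adjusted p = 0.32). The 3 genes kept their sign and lost their calls. That loss was not particular to them: over all genes the covariate took the WT calls from 990 (492 lower) to 31 (0 lower). Of 9 mast cell and basophil markers, cells that respond to interleukin-3 and can make several of these cytokines, 0 lay above background and 0 passed the test in WT, with 3 of 9 negative. The part of other cells in the cytokine values was not tested further.

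**Figure D3:**
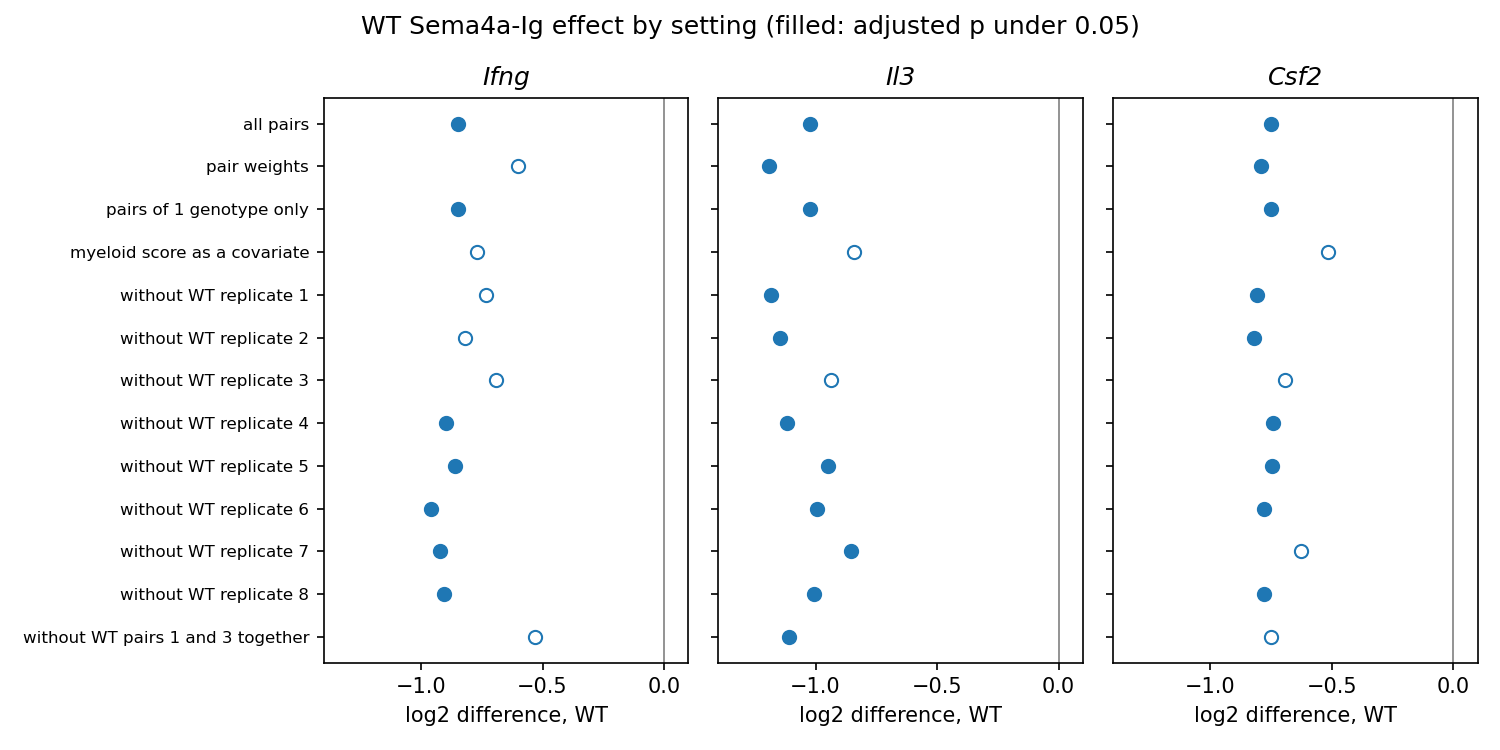
WT Sema4a-Ig minus IgG1 difference (log2 units, x axis) of Ifng, Il3 and Csf2 with all pairs, under other settings and with single pairs left out; filled circles have an adjusted p under 0.05 in limma. Every value lies below 0, from -0.96 to -0.53 for Ifng, from -1.19 to -0.84 for Il3 and from -0.82 to -0.51 for Csf2.

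Other genes of the cytokine pathways were read from lists drawn up with results of these data known. Over all genes, 2.91% were called higher and 2.88% lower in WT. Of 21 other T cell cytokine genes, 1 rose and 2 fell with Sema4a-Ig in WT. Those that fell were Fasl, a death ligand (-0.51 ± 0.12, adjusted p = 0.0165), and Lta. Csf1, which encodes the macrophage growth factor M-CSF, rose by 0.40 ± 0.10 (adjusted p = 0.0271). Csf1 gave -0.05 ± 0.10 in NRP KO, and the difference between genotypes had an adjusted p of 0.748.

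Of 16 receptor chains for these cytokines, 3 rose and 1 fell in WT. Ifngr1, which binds interferon gamma, rose by 0.64 ± 0.09 (adjusted p = 0.000631), in the direction opposite to Ifng. Il2rb, a signalling chain of the interleukin-2 receptor, rose by 0.30 ± 0.08 (adjusted p = 0.0286), and Il17ra rose by 0.28 ± 0.07 (adjusted p = 0.0228). Il21r was the one that fell (-0.41 ± 0.09, adjusted p = 0.0163). In NRP KO, Ifngr1 gave 0.26 ± 0.09 (adjusted p = 0.396), with a genotype difference of -0.38 ± 0.13 (adjusted p = 0.765).

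Among 16 genes that respond directly to these cytokines, 5 rose and 0 fell in WT. Bcl2, a survival factor, rose by 0.62 ± 0.10 and Socs3, a feedback inhibitor of cytokine signalling, by 0.60 ± 0.12. Gbp2, an interferon-induced GTPase, rose by 0.45 ± 0.09 while Ifng itself was lower. Socs2 rose by 0.30 ± 0.08. The fifth, Cish, an inhibitor induced by STAT5, rose by 0.25 ± 0.07 and is named after its value was seen.

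Of 32 transcription factors that act on cytokine genes, 1 rose and 1 fell in WT, near the share of all genes called in either direction, 5.79%. Irf4, a factor induced by antigen receptor signals, fell (-0.50 ± 0.15, adjusted p = 0.0493), and Stat4, which carries interleukin-12 signals to Ifng, rose by 0.29 ± 0.08 (adjusted p = 0.0394). Tbx21, which encodes the type 1 master factor T-bet and is named after its value was seen, gave -0.70 ± 0.22 in WT (adjusted p = 0.0594) and -0.66 ± 0.22 in NRP KO (adjusted p = 0.383). Neither passed the test. Of 12 factors that control decay of cytokine mRNA, 0 passed. In NRP KO and in the genotype difference, 0 genes of any of these lists passed.

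**Figure D4:**
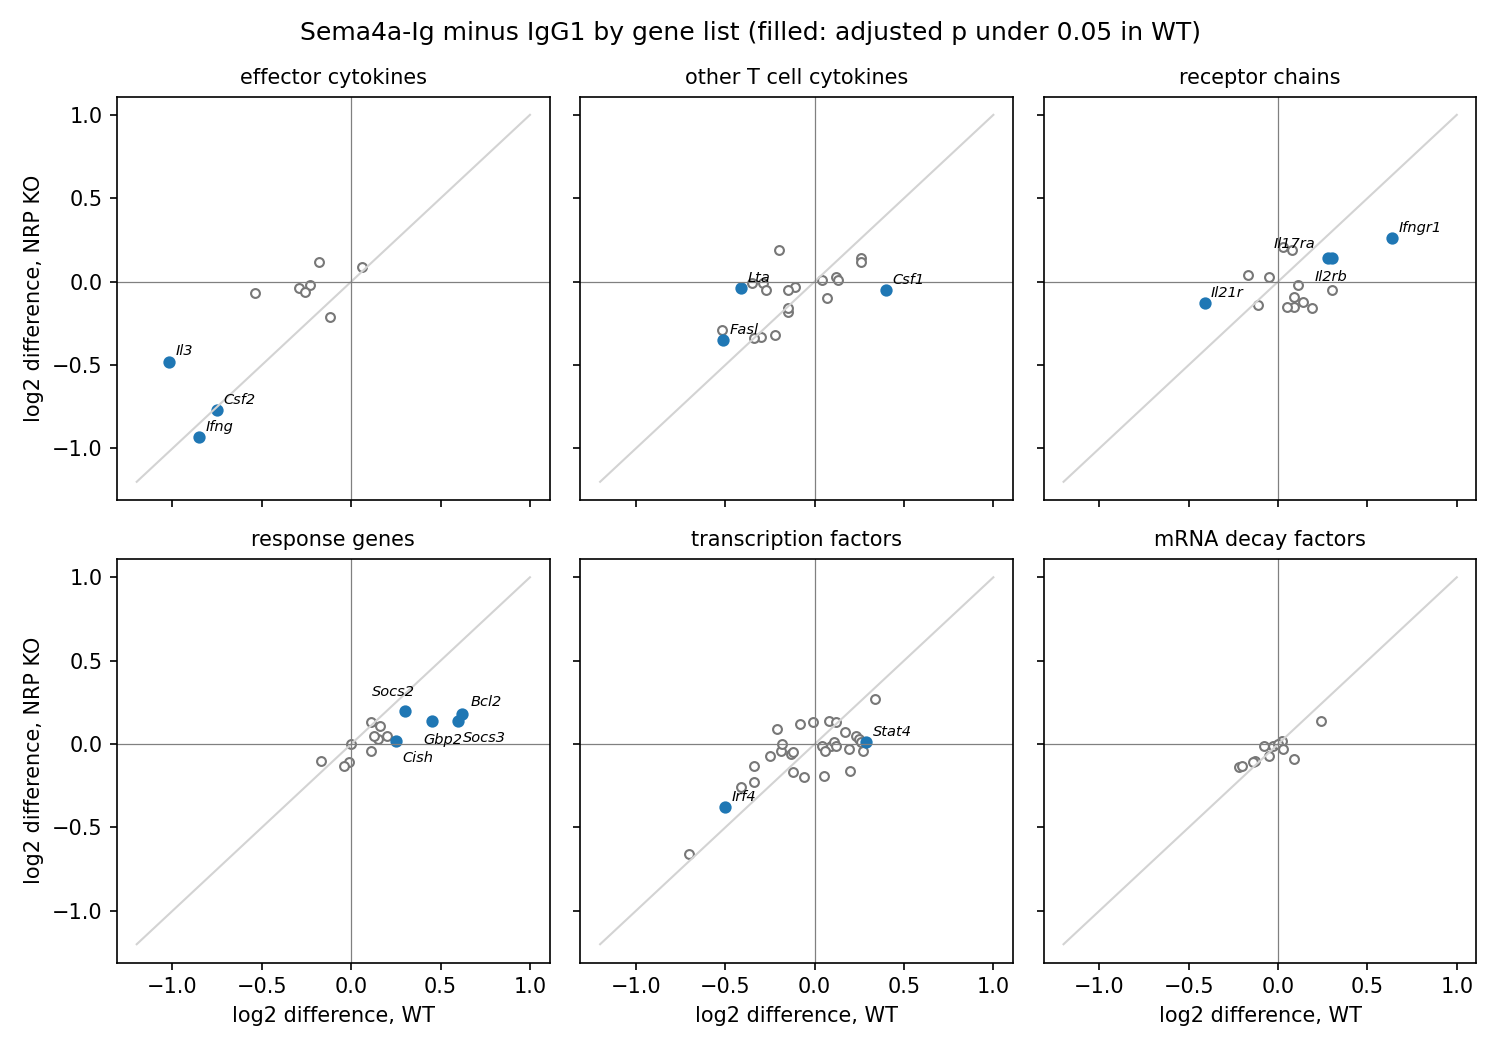
Sema4a-Ig minus IgG1 difference in WT (x axis, log2 units) against NRP KO (y axis, log2 units) for the effector cytokine genes and 5 lists of related genes; filled, named points passed the test in WT, and the grey line marks equal values. Ifng and Csf2 lie near the line, Il3 lies above it, and no gene passed the test in NRP KO.

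Some genes followed the cytokine genes from pair to pair. Over the 16 pair differences, the 3 genes with the highest Pearson's r to Ifng were Mrpl50 (0.91), Apool (0.91) and Txnl1 (0.90), and the lowest was Zfp750 (-0.84). For Il3 they were Bard1 (0.88), 1110028F18Rik (0.82) and Arf4 (0.81), with C130080G10Rik lowest (-0.89). For Csf2 they were Chchd6 (0.82), Plekha6 (0.80) and Gprc5b (0.77), with Cnn2 lowest (-0.80). These are the extremes of 17097 genes over 16 pairs, given as a description with no test. Of 25 measured genes within 100 kb of a cytokine gene on the chromosome, 1 was called in WT, Lta. Over all genes 5.79% were called in WT in either direction.

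The sorted cells posed another question, namely how these genes stood in Treg and conventional T cells at rest and whether stimulation of Treg raised them. All 10 genes had group means at or below the background level of 6.01 in all 3 groups. On single arrays, Ifng in activated Treg replicate 3 (6.08) and resting Treg replicate 3 (7.71), and Il17a in activated Treg replicate 1 (6.01), reached above it. Against conventional T cells, resting Treg had 1 of the 10 genes called, Il2, which was lower. The background was 5.51% of all genes called in either direction and 1.65% called lower. Over all genes 703 rose and 300 fell, or 671 and 500 after quantile normalisation.

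Il2 signals were 4.89 and 4.80 log2 units in conventional T cells. They were 3.93, 4.18 and 3.88 in resting Treg and 4.32, 4.01 and 4.35 in activated Treg. Both conventional arrays lay above all 6 Treg arrays, although every value lay under the background level. Resting Treg were lower by 0.85 ± 0.18 log2 units (95% interval -1.26 to -0.45, adjusted p = 0.0303, limma). The call was lost without resting Treg replicate 1 (-0.82, adjusted p = 0.0731) or replicate 3 (-0.80, adjusted p = 0.0735), and without conventional replicate 1 (-0.81, adjusted p = 0.294) or replicate 2 (-0.90, adjusted p = 0.195). Activated Treg were -0.62 ± 0.18 from conventional T cells (adjusted p = 0.0686), which passed with array weights (-0.76, adjusted p = 0.00153) and with quantile normalisation (-0.70, adjusted p = 0.0494).

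Ifng signals were 3.74 and 3.81 log2 units in conventional T cells, 4.98, 4.69 and 7.71 in resting Treg and 5.65, 5.82 and 6.08 in activated Treg. All 6 Treg arrays lay above both conventional arrays. One resting Treg array, replicate 3, stood above the others, and the resting and activated groups overlapped through it. Resting Treg minus conventional T cells was 2.01 ± 0.77 (adjusted p = 0.21, limma) and without replicate 3 it was 1.05 (adjusted p = 0.0308). Activated Treg minus conventional T cells was 2.07 ± 0.77 (adjusted p = 0.156). It passed without resting Treg replicate 3 (adjusted p = 0.000449), in a fit of the 2 groups alone (adjusted p = 0.001) and with array weights (2.04, adjusted p = 0.00657). Activated minus resting Treg was 0.06 ± 0.69 (95% interval -1.52 to 1.64) and 1.02 without that array (adjusted p = 0.0654).

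That resting Treg array also had the highest signals of MHC class II genes. H2-Aa was 10.55 there, against 7.79 and 8.86 in the other resting Treg, and Cd74 was 9.34 against 7.02 and 7.18. Over the 9 dendritic cell and MHC class II markers the mean level ran from 5.88 to 7.04 in resting Treg, from 5.96 to 6.64 in activated Treg and from 5.31 to 5.33 in conventional T cells, while Itgax (4.48) and Xcr1 (4.32) lay at background on that array. B cell markers were also high there: Cd79b was 7.75, Cd22 7.38 and Blk 6.25, the highest of the 8 arrays for each. These signals were not particular to that array. Activated Treg replicate 1, with Ifng at 5.65, read 7.33 for Cd79b, 7.10 for Cd22 and 5.05 for Blk. Its Ms4a1 was 6.78, against 5.84 on resting Treg replicate 3, and its H2-Aa and Cd74 were 9.82 and 8.18. Against conventional T cells, resting Treg showed a rise in 3 of 9 such markers, Cd79b (2.85 ± 0.48), Ighm (0.77 ± 0.15) and Cd79a (0.73 ± 0.16). Of these, Ighm was already at 12.95 and 12.82 on the conventional T cell arrays, so it does not mark B cells alone here. Cd79a lay between 4.37 and 5.19 on all 8 arrays, under the background level of 6.01. In activated Treg, 2 of the 9 were higher than in conventional T cells, Cd79b (2.56 ± 0.48) and Ighm (0.73 ± 0.15). The mean level of the 9 markers ran from 6.08 to 6.74 in resting Treg, from 5.95 to 6.68 in activated Treg and from 5.45 to 5.49 in conventional T cells. Pax5 (4.18) and Ebf1 (4.23) lay at background on resting Treg replicate 3.

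Myeloid markers varied between the Treg arrays as well. Tyrobp was 7.53 on resting Treg replicate 3, the highest of the 8 arrays. Activated Treg replicate 1 stood apart, with S100a8 at 11.29 and S100a9 at 10.32, against 4.10 to 6.22 and 3.81 to 5.85 on the others. The mean level of the 16 markers ran from 5.31 to 5.97 in resting Treg, from 5.58 to 7.23 in activated Treg and from 5.15 to 5.21 in conventional T cells. Cybb was higher in resting Treg (2.54 ± 0.28) and, with Lyz1 (3.33 ± 0.87), in activated Treg than in conventional T cells.

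CD8 T cells and NK cells can make interferon gamma. Over 9 of their markers the mean level ran from 5.01 to 5.33 in resting Treg, from 4.86 to 5.18 in activated Treg and from 5.86 to 6.07 in conventional T cells. Klrd1 carried most of that gap, at 12.03 on both conventional arrays and -4.73 ± 0.43 in resting Treg against them. Ncr1, an NK cell receptor, was 4.35 on resting Treg replicate 3. The part of these other cells in the Ifng signal was not tested.

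**Figure D5:**
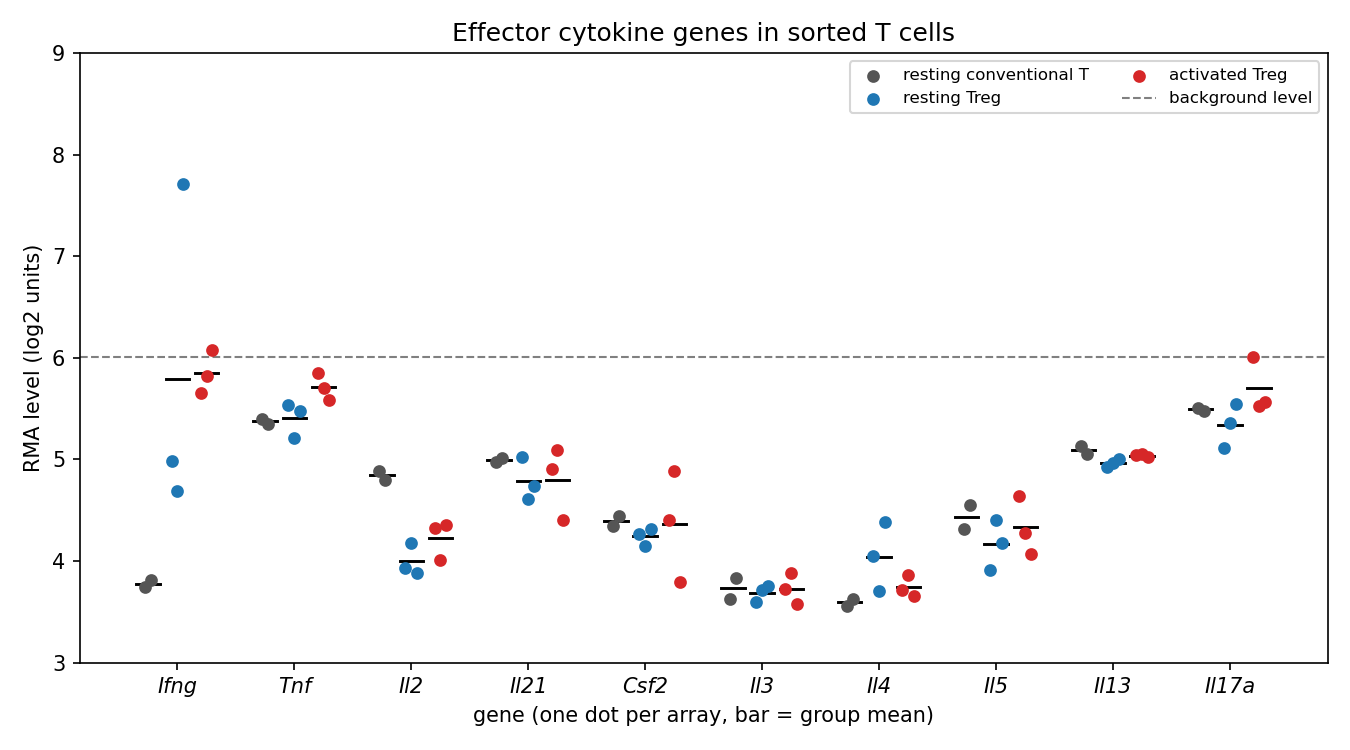
RMA levels (log2 units, y axis) of the 10 cytokine genes in 2 resting conventional T cell, 3 resting Treg and 3 activated Treg arrays; dots are arrays, bars are group means and the dashed line is the background level of 6.01. Nearly all arrays lie under the line, with 1 resting Treg array of Ifng at 7.71.

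Stimulation for 48 h did not give a call for any of the 10 genes. Activated against resting Treg called 0.742% of all genes (135 of 18194, with 2095 at an unadjusted p under 0.05), and 0 of the 10 had an unadjusted p under 0.05. The means were positive for 9 of 10 with a median of 0.09, beside 0.00 over all genes. Tnf was 5.85, 5.70 and 5.58 in activated Treg and 5.54, 5.21 and 5.48 in resting Treg, all under the background level of 6.01. The nearest values of the 2 groups were 5.58 and 5.54. The Tnf difference was 0.30 ± 0.15 (adjusted p = 0.516, limma). Il17a was 6.01, 5.53 and 5.56 in activated and 5.11, 5.36 and 5.55 in resting Treg, groups that overlapped, with a difference of 0.36 ± 0.19 (adjusted p = 0.535). The highest Tnf and Il17a values came from activated Treg replicate 1, the array with the high myeloid markers. Without it the differences were 0.23 for Tnf (adjusted p = 0.755) and 0.20 for Il17a (adjusted p = 0.824) by limma. Other genes on the same arrays passed. Il10, an inhibitory cytokine made by Treg, rose by 3.34 ± 0.47 (adjusted p = 0.0268) and was the 1 gene of 22 other T cell cytokine genes that passed. The transcription factors Egr3 (5.93 ± 0.33), Egr2 (4.95 ± 0.47), Irf4 (3.73 ± 0.27) and Ikzf3 (1.67 ± 0.29) rose, 4 of 32 on that list. Of the receptor chains and the response genes, 0 of 17 and 0 of 16 passed.

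None of the remaining 6 genes passed the test in any comparison of the sorted cells. Il3 lay between 3.58 and 3.88 on all 8 arrays, and Il13 between 4.93 and 5.13. Csf2 lay between 3.79 and 4.89, with its extremes both in activated Treg. Il5 ranged from 3.91 to 4.64 and Il21 from 4.40 to 5.09, with the groups overlapping. A second Il21 probe set gave 4.02 ± 0.16 (SD, n = 3) in activated Treg, 4.26 ± 0.42 (n = 3) in resting Treg and 4.28 ± 0.01 (n = 2) in conventional T cells. Il4 was 4.05, 3.70 and 4.38 in resting Treg and 3.56 and 3.63 in conventional T cells, a difference of 0.45 ± 0.21 (adjusted p = 0.318, limma).

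Activated Treg against conventional T cells called 9.7% of all genes and 0 of the 10 cytokine genes, 2 of which (Il2 and Ifng) had an unadjusted p under 0.05. Tnf, at 0.34 ± 0.17 (adjusted p = 0.303), passed with array weights alone (adjusted p = 0.0456). The receptors for these cytokines did differ on these arrays. Il2ra, the high-affinity chain of the interleukin-2 receptor, was higher by 5.49 ± 0.33 in resting Treg (adjusted p = 7.9e-05) and by 7.07 ± 0.33 in activated Treg (adjusted p = 1.64e-05) than in conventional T cells. Il2rb was higher by 2.98 ± 0.28 and 4.32 ± 0.28, and Tnfrsf1b, a receptor for tumour necrosis factor, by 3.20 ± 0.45 and 4.21 ± 0.45. Of 17 receptor chains, 4 rose and 0 fell in resting Treg, with Il3ra (0.87 ± 0.16) among them, and 4 rose and 2 fell in activated Treg. Both comparisons share the 2 conventional T cell arrays. Of the 16 response genes, 5 rose and 2 fell in resting Treg, with Socs2 (3.20 ± 0.50) and Cish (2.16 ± 0.26), both targets of interleukin-2 signalling, at the top. Of 22 other cytokine genes, Tnfsf11 (3.01 ± 0.29) and Ebi3 (2.62 ± 0.27), which encodes a subunit of interleukin-35, rose in resting Treg, and Cd40lg, the helper signal to B cells, fell (-0.98 ± 0.16).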

How the data were processed

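Per the submitters' processing notes, the authors normalised the arrays with RMA in Partek 6.6, and the deposited values are log2 signals per probe set. Genome build does not enter these values. Probe sets with 1 gene name were kept (34958 of 45101 for the sorted cells, 28898 of 45141 for the ligand experiment), with the highest mean choosing 1 per gene, and symbols came from the platform annotation and RefSeq. The members and all gene lists were chosen with earlier results of these data known. Named genes were all 10 cytokine genes and, per other list and comparison, at most 4 called genes with the largest change. Cish, Tbx21 and the uncalled or per-array cell type markers were named after their values were seen. Tests used limma 3.58.1 in R 4.3.3 (lmFit, eBayes, two-sided, Benjamini-Hochberg over all genes): 1 fit of 3 group means on 8 arrays (5 residual degrees of freedom), and 1 fit of 2 genotype means on 16 pair differences (14 degrees of freedom). Pairs came from consecutive title codes, and their equal means in the values bear the pairing out. The number of arrays limits precision. The scripts were tested on simulated data.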

Additional observations from a re-analysis of the deposited data

How the results depend on the processing

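The calls of the cytokine genes were recomputed under other settings (probe set choice, normalisation, filters, weights, blocks, covariates, single arrays or pairs left out) and with WT pairs 1 and 3 left out together. Of 1099 recomputed values over 60 gene and comparison combinations, 1005 kept their direction and side of the threshold, 62 stayed without a call but changed sign, 16 lost a call, 16 gained one and 0 called values turned sign. Most combinations had no call to lose. Among those that did, Il2 in resting Treg against conventional T cells lost its call in 4 of 13 settings. All 4 losses came with 1 resting Treg or conventional T cell array left out. The 13 include leaving out single activated Treg arrays, which cannot move this difference. The WT Sema4a-Ig calls were lost in 6 of 25 settings for Ifng, 2 of 24 for Il3 and 4 of 24 for Csf2. These settings include leaving out single NRP KO pairs, which cannot move the WT mean, so the shares understate how far the calls rest on single pairs. With single WT pairs left out, Ifng lost its call without pair 1, 2 or 3, Il3 without pair 3 and Csf2 without pair 3 or 7. Counts over all genes moved more. Activated against resting Treg gave 135 calls, but 79 with medians over probe sets, 216 with quantile normalisation, 957 with array weights, 36 in a fit of its 2 groups alone, 318 with the Actb signal class as a block and 12 to 168 with single arrays left out. Resting Treg against conventional T cells gave 3005 with array weights, 1633 with the Actb block and 242 to 1208 with arrays left out. Activated Treg against conventional T cells gave 5894 with array weights and 433 to 2262 with arrays left out. The WT Sema4a-Ig effect gave 990 calls, but 1589 with a filter on low values, 484 from WT pairs alone, 31 with the myeloid mean as a covariate, 258 to 1328 with single pairs left out and 133 without WT pairs 1 and 3 together. Without the replicate block of pairs, WT gave 4417, NRP KO 1734 and their difference 530, and Ifng (-0.92, adjusted p = 0.00208), Csf2 (-0.77, adjusted p = 0.00168) and Tnf (-0.20, adjusted p = 0.0112) then passed in NRP KO by limma, as did Il2 (adjusted p = 0.00498), Il4 (adjusted p = 0.0204), Il5 (adjusted p = 0.0105) and Il17a (adjusted p = 0.0344) in WT. That fit takes the arrays of a pair as independent, although their means had been made equal. The cause of the other changes was not tested. Mean signals under the background level limit Il3, Il4, Il5, Il13, Il17a, Il21 and Csf2 in every comparison.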
